A study of Mus musculus with 9 samples.

Results

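Regulators of G protein signalling (RGS proteins) switch off signals that reach a cell through G protein-coupled receptors. Their genes were examined here in nascent RNA from mouse CD8+ T cells. The 8 genes described are Rgs1, Rgs2, Rgs3, Rgs10, Rgs11, Rgs14, Rgs16 and Rgs19, of 21 Rgs genes and 37022 genes in the tables. They were chosen by symbol, with the gene-body differences between the groups already known, so their values in those comparisons are a description and support nothing by themselves. For each gene, 1 transcript row was used, that whose gene-body mean over the 9 libraries was the highest.

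The study compared CD8+ T cells under 3 conditions: acute stimulation (Acute), chronic stimulation (Chronic), and chronic stimulation with inhibition of MEK, the kinase that activates ERK (ChronicMEKi). Each group held 3 libraries of RNA labelled for 30 minutes with 0.2 mM 5-ethynyl uridine, a uridine analogue built into newly made RNA. The mouse strain and age, the manner and length of stimulation and the identity of the inhibitor are not given in the sources used here. No source says that the libraries came from separate cultures or animals, so the spread between them may be technical. The Chronic group serves in both of its comparisons and the Acute group likewise, so the 3 comparisons share libraries.

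When a receptor is activated, the alpha subunit of its G protein binds GTP and parts from the beta and gamma subunits, and all of these then act on effectors such as adenylyl cyclase and phospholipase C. An RGS protein speeds the hydrolysis of that GTP, which ends the signal. In lymphocytes RGS proteins are best known for limiting the response to chemokines and sphingosine 1-phosphate, and so for setting how cells migrate and where they stay. Rgs1, Rgs2, Rgs3 and Rgs16 encode RGS proteins of one subfamily, of which Rgs2 is known for its preference for the Gq class of alpha subunits. Rgs10 and Rgs14 belong to another subfamily, Rgs19 to a separate one, and Rgs11 to one whose members pair with the beta subunit Gnb5.

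Sequence upstream of the annotated starts is shown for 3 genes, because the results below turn on them: Rgs2 and Rgs16 had the largest differences of the 8 genes in Chronic against Acute, and Rgs19 went the other way, with its lowest signal in Chronic both near the start and in the gene body. Each is the 250 bases before a RefSeq start (GRCm38.p6), read 5′ to 3′ on the gene's strand. Rgs2 lies at chr1:144004150-144004399 (minus strand), Rgs16 at chr1:153740103-153740352 (plus strand) and Rgs19 at chr2:181693978-181694227 (minus strand). Capitals mark matches to searched motifs, other than the common NFAT core.
Rgs2: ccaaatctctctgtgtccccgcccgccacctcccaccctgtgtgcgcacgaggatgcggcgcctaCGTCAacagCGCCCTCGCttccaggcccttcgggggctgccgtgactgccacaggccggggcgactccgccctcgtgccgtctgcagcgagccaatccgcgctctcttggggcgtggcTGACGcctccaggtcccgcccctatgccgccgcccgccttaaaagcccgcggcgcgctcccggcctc
Rgs16: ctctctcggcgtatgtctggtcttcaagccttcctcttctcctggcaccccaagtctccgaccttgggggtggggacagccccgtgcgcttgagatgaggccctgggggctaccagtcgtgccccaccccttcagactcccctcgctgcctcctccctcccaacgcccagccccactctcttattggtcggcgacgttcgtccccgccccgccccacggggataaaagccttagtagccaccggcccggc
Rgs19: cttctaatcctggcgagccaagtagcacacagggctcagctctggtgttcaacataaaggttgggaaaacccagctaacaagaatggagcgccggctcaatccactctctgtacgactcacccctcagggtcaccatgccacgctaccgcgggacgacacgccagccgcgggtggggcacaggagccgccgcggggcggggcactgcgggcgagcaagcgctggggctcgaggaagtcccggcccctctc

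The table of RefSeq promoters held 8 windows for 5 of the 8 genes, each running from 250 bases before to 50 bases after a start. Both strands were searched for 8 motifs: AP-1 (TGANTCA), the cyclic AMP response element CRE (TGACGTCA), its half-site (TGACG), EGR (GCGNGGGCG), ETS (CCGGAA), NFAT (GGAAA), the TATA box (TATAAA) and the serum response CArG box. The half-site lies inside the full CRE, and an NFAT match can overlap an ETS match. In the Rgs2 window the half-site matched at -185 and -67, and EGR at -176, counted from the start site to the first base of the match. Of all 32851 windows of this length, 20.8% held the half-site and 5.6% the EGR letters. The Rgs16 and Rgs10 windows held none of the 8 motifs. The Rgs19 window shown held the NFAT letters at -187 and no other match, and 61.3% of all windows held them. Of the other Rgs19 windows, one held EGR at -98 and one, whose start is 2160 bases from that of the row used, held ETS at -33 and -5, overlapping NFAT at -31 and -6. At the start of the Rgs3 row used, TATAAA matched at -177 and the NFAT letters at -73, and 13.6% of all windows held TATAAA. Another Rgs3 window held TATAAA at -100. Signal near the starts of these Rgs3 windows was low, with group means of at most 11.3. No window covered the Rgs3 start with the highest such signal, 74.5 kb from the first. AP-1, CRE, ETS and the CArG box stood in 7.8%, 1.8%, 14.9% and 1.6% of all windows. A match is a description of letters and shows no binding.

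The values below are the deposited signal, scaled between libraries so that the typical gene is level. Differences are on the scale log2(signal + 5) and come from limma, fitted to the 15820 genes that reached 50 units in 3 or more libraries. A gene is called when its Benjamini-Hochberg adjusted p over all of these genes is under 0.05. Gene-body totals before scaling ran from 48600000 to 52220000 units over the 9 libraries, but the number of reads behind a unit is unknown, so no counting interval can be given. Ribosomal RNA-like transcripts took 19.1 to 22.3% of the total in Acute, 34.2 to 40.6% in Chronic and 29.0 to 36.1% in ChronicMEKi. Scaling to library totals instead moves the median gene by -0.50 in Chronic against Acute and by 0.14 in ChronicMEKi against Chronic, and differences are given here relative to that median. Dusp6, a phosphatase gene that depends on ERK, had 2522 ± 297 units in Acute (SD, n = 3), against 2413 ± 96.7 in Chronic and 201 ± 9.03 in ChronicMEKi.

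All 10 CD8 T cell markers were measured, with a summed signal of 47650 to 57608 in Acute, 35793 to 36042 in Chronic and 39451 to 44282 in ChronicMEKi. In Chronic against Acute 1 was called higher and 7 lower, where 33.6% of all genes were called. In ChronicMEKi against Chronic 4 were called higher and 1 lower, against 16.8% of all genes. Cd8a itself was 4091 ± 406 in Acute, 976 ± 184 in Chronic and 2843 ± 313 in ChronicMEKi (SD, n = 3). Of the B cell markers, Cd79b and Ms4a1 stayed under 50 in every library, as did Lyz2, Itgam, Cd14 and Mpeg1 of the myeloid list, Ncr1 of the NK list, Pf4 and Ppbp of platelets and all 3 stromal markers. The summed B cell list was 609 to 630 in Acute, 205 to 246 in Chronic and 188 to 454 in ChronicMEKi. The summed myeloid list was 300 to 357, 217 to 259 and 165 to 347. Markers under 50 in every library were 3 of 6 for B cells, 4 of 7 for myeloid cells, 1 of 3 for NK cells and 2 of 3 for platelets. The summed NK list was thus not low, at 1262 to 1469 in Acute, 976 to 1855 in Chronic and 1565 to 1630 in ChronicMEKi. The summed platelet list was 54.2 to 121, 35.3 to 81.6 and 49.8 to 90.3. Cd4 had 101 to 495 units over the 9 libraries and was lower in both Chronic groups, with log2 differences of -0.98 for Chronic and -1.92 for ChronicMEKi against Acute. Zbtb7b, the other marker of that list, had 655 to 1840 units, with 0.36 for Chronic, which was not called, and 1.14 for ChronicMEKi, which was. The sum of both was 1038 to 1400 in Acute, 1066 to 1391 in Chronic and 1725 to 1941 in ChronicMEKi. The part of these cells in the results below was not tested. In such bulk libraries, fewer cells making a transcript and less made per cell cannot be told apart.

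The 8 genes are described in 3 sets. Rgs1, Rgs2 and Rgs16 were low under MEK inhibition relative to Chronic, at 13.4%, 3.76% and 17.1% of the Chronic mean. Rgs3, Rgs14 and Rgs19 were lower in Chronic than in Acute, at 50.6%, 62.5% and 73.5% of the Acute mean, and of these only Rgs3 was called higher again with the inhibitor. Rgs10 and Rgs11, the others, were lowest on average in ChronicMEKi, but so were Rgs1, Rgs2 and Rgs14. Rgs10 was highest on average in Acute, whereas Rgs11 was highest in Chronic, as Rgs1, Rgs2 and Rgs16 were on average. In Chronic against Acute 6 of the 8 were called, 3 higher and 3 lower, where 33.6% of all genes tested were called. In ChronicMEKi against Chronic 6 were called, 1 higher and 5 lower, against 16.8% of all genes. In ChronicMEKi against Acute 5 were called, all lower, against 25.8% of all genes. Since these contrasts were known when the genes were chosen, nothing is read from these counts. All 8 genes passed the filter on low signal, but Rgs11 passed it through 5 libraries, 3 of them Chronic.

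**Figure D1:**
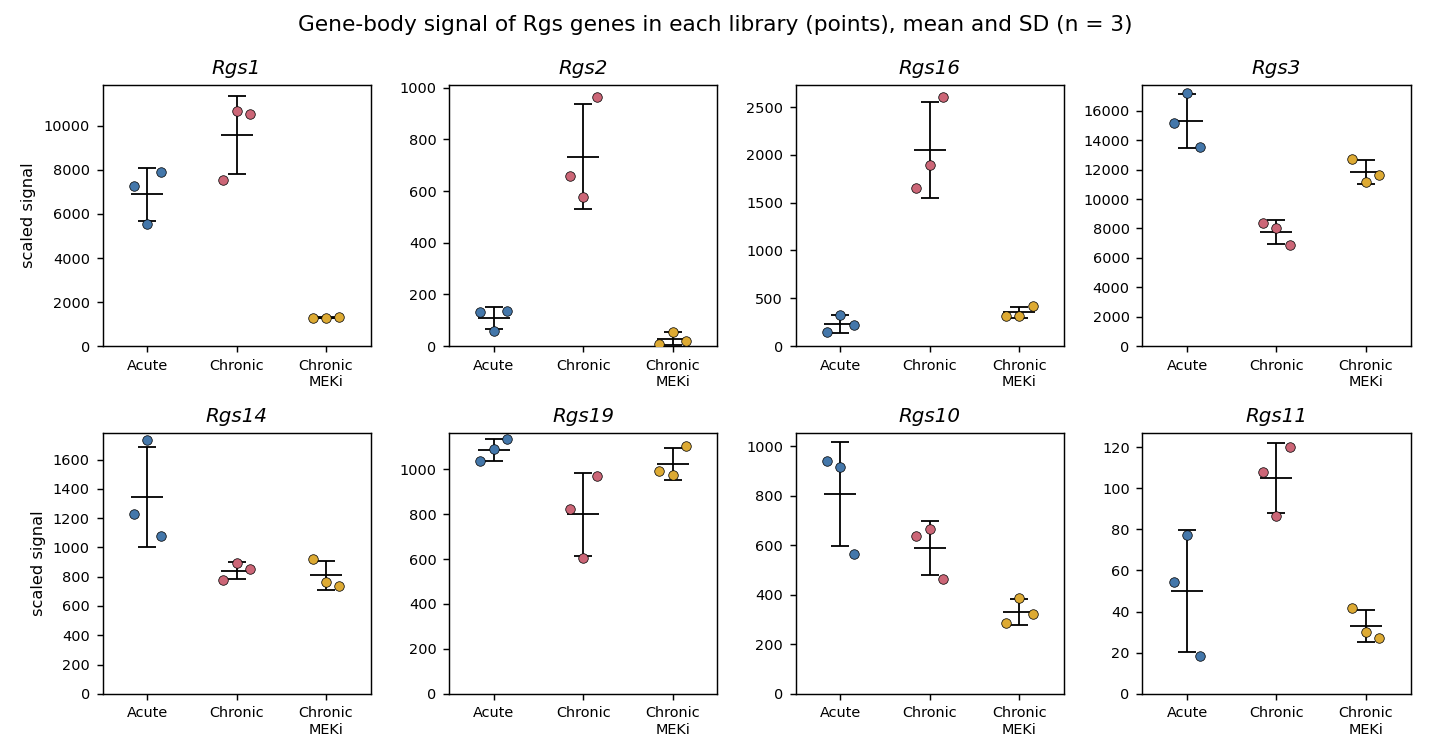
Scaled gene-body signal (vertical axis, from 0, its own range in each panel) of each of the 8 Rgs genes in Acute, Chronic and ChronicMEKi. Points are libraries, bars are the mean and SD of 3 libraries. Rgs1, Rgs2 and Rgs16 show Chronic libraries well above the ChronicMEKi ones, and Rgs3 shows Chronic libraries (6860 to 8367) below both other groups.

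Rgs16, which encodes an RGS protein found in activated lymphocytes, spans chr1:153740349-153745468 on the plus strand. Its gene-body signal was 143, 324 and 224 in the 3 Acute libraries, 1648, 1891 and 2608 in Chronic, and 316, 318 and 420 in ChronicMEKi. Every Chronic library stood above every library of the other groups, and Acute and ChronicMEKi overlapped. The means were 230 ± 91.1, 2049 ± 499 and 351 ± 59.1 (SD, n = 3), so Chronic was 8.89 times Acute. In the limma fit the log2 differences were 3.17 (SE 0.26, adjusted p = 2.70e-08) for Chronic against Acute and -2.51 (SE 0.26, adjusted p = 1.31e-06) for ChronicMEKi against Chronic. ChronicMEKi against Acute was 0.66 and missed the threshold (adjusted p = 0.0686). Without Acute replicate 2, the highest of that group, this difference was 0.94 and was called (adjusted p = 0.00577), and without Acute replicate 1, the lowest, it was 0.36 (adjusted p = 0.327).

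A noncoding gene, Gm28513, overlaps Rgs16 on the other strand. Its signal was 139 ± 46.0 in Acute, 1247 ± 174 in Chronic and 273 ± 35.3 in ChronicMEKi, with log2 differences of 3.16 and -2.17 for the same 2 comparisons. Whether the counting used strand is not given in the sources used here, so reads from the stretch that Rgs16 and Gm28513 share cannot be told apart.

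Rgs2, the RGS gene with a preference for Gq, spans chr1:143999338-144004161 on the minus strand. Its signal was 132, 57.8 and 135 in Acute, 659, 577 and 963 in Chronic and 6.39, 55.6 and 20.8 in ChronicMEKi. The 3 groups did not overlap, with Chronic highest and ChronicMEKi lowest. The means were 108 ± 43.8, 733 ± 203 and 27.6 ± 25.3 (SD, n = 3). The log2 difference in limma was 2.76 (SE 0.51, adjusted p = 4.06e-04) for Chronic against Acute, -4.79 (SE 0.51, adjusted p = 2.77e-06) for ChronicMEKi against Chronic and -2.03 (SE 0.51, adjusted p = 0.00659) for ChronicMEKi against Acute. Its SE was near the largest among the 8 genes, beside ChronicMEKi libraries that spread from 6.39 to 55.6. With the median over its 4 rows in place of 1 row, ChronicMEKi against Acute was -1.33 and was not called (adjusted p = 0.0866).

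Rgs1, an RGS gene of lymphocytes known for restraining chemokine receptor signals, spans chr1:144242296-144249242 on the minus strand. Its signal was 7267, 5557 and 7888 in Acute, 7547, 10698 and 10523 in Chronic and 1275, 1287 and 1297 in ChronicMEKi. Acute and Chronic overlapped, and every ChronicMEKi library lay below all the others. The means were 6904 ± 1207, 9589 ± 1771 and 1286 ± 11.3 (SD, n = 3), so Chronic was 7.46 times ChronicMEKi. The limma differences were -2.88 (SE 0.14, adjusted p = 2.46e-10) for ChronicMEKi against Chronic and -2.40 (SE 0.14, adjusted p = 1.59e-09) for ChronicMEKi against Acute. Rgs1 thus lay below its Acute level with the inhibitor, as Rgs2 did, whereas Rgs16 did not.

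For Rgs1 the difference between Chronic and Acute was small, 0.47 (SE 0.14, adjusted p = 0.0139 in limma), and rested on the scaling. Scaled to library totals it was -0.02, and it missed the threshold without Acute replicate 2 (0.32, adjusted p = 0.0599), without Chronic replicate 2 (0.39, adjusted p = 0.0734) and without Chronic replicate 3 (0.40, adjusted p = 0.0703). All 9 annotated Rgs1 transcript rows gave -2.89 to -2.64 for ChronicMEKi against Chronic, computed as the log2 ratio of group means with 5 added. These rows overlap and count many of the same reads.

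Rgs3, whose long transcripts encode RGS proteins with further domains, was measured over a span of 83.5 kb at chr4:62619520-62703018 (plus strand). The signal was 15194, 17242 and 13563 in Acute, 8367, 8058 and 6860 in Chronic and 12749, 11150 and 11625 in ChronicMEKi. The 3 groups did not overlap, with Chronic lowest and ChronicMEKi in between. The means were 15333 ± 1843, 7761 ± 796 and 11841 ± 821 (SD, n = 3). The limma differences were -0.98 (SE 0.10, adjusted p = 6.61e-07) for Chronic against Acute and 0.61 (SE 0.10, adjusted p = 3.27e-04) for ChronicMEKi against Chronic. ChronicMEKi against Acute was -0.37 (SE 0.10, adjusted p = 0.0138), and it was not called without Acute replicate 2 (-0.28, adjusted p = 0.0566) or without ChronicMEKi replicate 3 (-0.36, adjusted p = 0.0558).

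Rgs14, which can also bind Ras-family proteins and an inactive alpha subunit, spans chr13:55369732-55384687 on the plus strand. Its signal was 1228, 1733 and 1076 in Acute, 778, 894 and 850 in Chronic and 922, 766 and 737 in ChronicMEKi. Acute lay above both other groups, which overlapped. The means were 1346 ± 344, 841 ± 58.9 and 808 ± 99.6 (SD, n = 3). Chronic against Acute was -0.65 (SE 0.17, adjusted p = 0.00609 in limma) and ChronicMEKi against Acute -0.71 (SE 0.17, adjusted p = 0.00438). Between ChronicMEKi and Chronic the difference was -0.06 (SE 0.17, adjusted p = 0.872), and its sign changed with the scaling (0.08 on library totals).

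Rgs19, an RGS gene first known for its product's binding to an inhibitory alpha subunit, spans chr2:181688422-181693977 on the minus strand. Its signal was 1036, 1088 and 1135 in Acute, 821, 605 and 971 in Chronic and 992, 972 and 1105 in ChronicMEKi. Chronic lay below both other groups, by as little as 971 against 972 units. The means were 1086 ± 49.7, 799 ± 184 and 1023 ± 72.0 (SD, n = 3). Chronic against Acute was -0.47 (SE 0.16, adjusted p = 0.0339 in limma), and without Chronic replicate 2, the lowest library, it was -0.27 (adjusted p = 0.198). Leaving out any 1 Acute library also ended the call, at adjusted p from 0.0507 to 0.0871. ChronicMEKi against Chronic was 0.38 (SE 0.16) and was not called (adjusted p = 0.129), although scaling to library totals gave 0.52 (adjusted p = 0.0456). It was 0.19 without Chronic replicate 2 (adjusted p = 0.501) and 0.53 without Chronic replicate 3 (adjusted p = 0.0331).

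Rgs10, which encodes a small RGS protein abundant in immune cells, spans chr7:128373621-128418173 on the minus strand. Its signal was 942, 915 and 565 in Acute, 636, 667 and 465 in Chronic and 284, 385 and 321 in ChronicMEKi. Acute and Chronic overlapped, and ChronicMEKi lay below both. The means were 808 ± 210, 589 ± 109 and 330 ± 50.8 (SD, n = 3). The limma differences were -0.82 (SE 0.22, adjusted p = 0.0139) for ChronicMEKi against Chronic and -1.25 (SE 0.22, adjusted p = 3.12e-04) for ChronicMEKi against Acute. Chronic against Acute was -0.43 (adjusted p = 0.145). It was called without Acute replicate 3, at -0.68 (adjusted p = 0.028), and on library totals, at -0.92, whereas without Chronic replicate 3 it was -0.27 (adjusted p = 0.415). The difference between ChronicMEKi and Chronic was not called without Chronic replicate 2 (-0.73, adjusted p = 0.072) or without ChronicMEKi replicate 1 (-0.72, adjusted p = 0.0626). Gm15503 overlaps Rgs10 on the same strand.

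Rgs11, of the subfamily that pairs with Gnb5, spans chr17:26202962-26211324 on the plus strand and had the lowest mean signal per kb of the 8 genes in every group. Its signal was 54.4, 77.2 and 18.3 in Acute, 108, 86.4 and 120 in Chronic and 41.6, 30.2 and 27.0 in ChronicMEKi. Chronic lay above both other groups, which overlapped. The limma difference was -1.54 (SE 0.52, adjusted p = 0.0486) for ChronicMEKi against Chronic and 1.17 (SE 0.52, adjusted p = 0.0914) for Chronic against Acute. The first was called in 4 of 18 alternatives, and leaving out any 1 Chronic or ChronicMEKi library ended the call. The second was 1.55 without Acute replicate 2 and was then called (adjusted p = 0.0395), but 0.63 without Acute replicate 3 (adjusted p = 0.39). Arhgdig, on the other strand, overlaps Rgs11 and had 87.4 ± 24.2, 141 ± 56.4 and 51.1 ± 38.9 units, so reads of both genes may be mixed. The partner subunit Gnb5 was 69.1 ± 23.1, 114 ± 33.6 and 72.4 ± 13.7 and was called in no comparison (adjusted p = 0.219, 0.391 and 0.903).

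**Figure D2:**
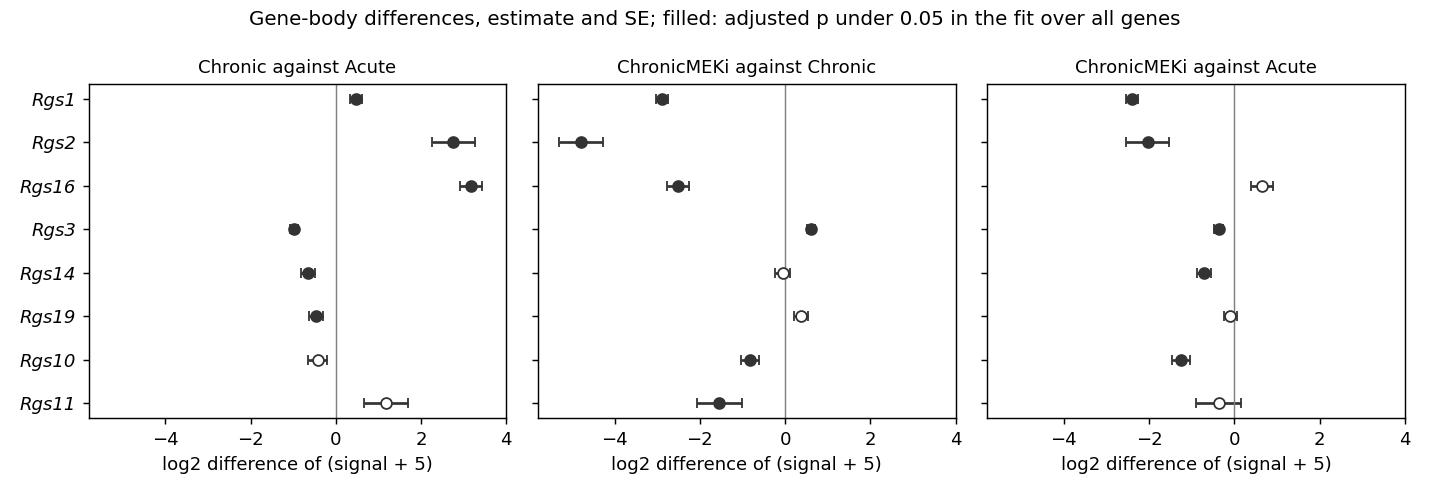
Log2 difference of (signal + 5) in the gene body (horizontal axis) for each of the 8 genes in the 3 comparisons, which share libraries. Points are limma estimates, bars are 1 SE, and filled points have an adjusted p under 0.05. Rgs2 has the lowest value, -4.79 in ChronicMEKi against Chronic, and Rgs16 the highest, 3.17 in Chronic against Acute.

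Compared per kb of gene span, Rgs1 stood first in Acute (994 ± 174 units per kb, n = 3) and in Chronic (1380 ± 255). Rgs16 held rank 2 in Chronic at 400 ± 97.4 per kb, against rank 5 in Acute at 45.0 ± 17.8, where it overlapped Rgs2. Rgs2 moved from rank 6 to rank 3, at 152 ± 42.2 per kb in Chronic, where it overlapped Rgs19 at 144 ± 33.1. In ChronicMEKi, Rgs1 at 185 ± 1.63 and Rgs19 at 184 ± 13.0 overlapped, followed by Rgs3 at 142 ± 9.83. Rgs10, Rgs2 and Rgs11 were then the lowest, at 7.41, 5.72 and 3.94 per kb, and neighbours in that order overlapped. The Rgs3 level per kb, and so its rank, depends on the row. Its shorter row Rgs3-214 had 14679 units over 68.6 kb in Acute, against 15333 over 83.5 kb for the row used. Nascent signal covers introns, and the order by exonic length differs: by that measure Rgs3 stood first in Acute and ChronicMEKi, Rgs16 was at rank 6 in Acute and 3 in Chronic, and Rgs2 was at rank 7 in both.

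The second deposited table holds signal near the start of each transcript, read here as the pause region, where RNA polymerase halts before moving into the gene. Of the 8 genes, 4 passed the filter there, namely Rgs1, Rgs2, Rgs16 and Rgs19. It comes from the same libraries and is no independent replicate. Among the 7593 genes tested, 10.9% were called in Chronic against Acute, 2.88% in ChronicMEKi against Chronic and 5.87% in ChronicMEKi against Acute, and of the 4 Rgs genes 3, 3 and 1 were called. Rgs2 passed the filter there only through the Chronic libraries, where it is high, so a difference was bound to appear, and nothing is read from these counts.

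At the start of Rgs16 the signal was 50.5, 78.9 and 70.7 in Acute, 195, 260 and 379 in Chronic and 61.2, 34.0 and 25.8 in ChronicMEKi. The Chronic libraries stood above the rest, as in the gene body, with limma differences of 1.95 (SE 0.37) against Acute and -2.66 (SE 0.37) for ChronicMEKi against Chronic. At the start of Rgs2 it was 11.5, 19.0 and 23.9, then 105, 77.0 and 187, then 2.02, 14.4 and 8.61. Chronic was again apart from both groups (2.42 and -3.29), while Acute and ChronicMEKi overlapped and their difference of -0.88 was not called (adjusted p = 0.526). The fitted Rgs2 differences are conditioned on Chronic passing the filter, since all its Acute and ChronicMEKi values lie under 50.

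At the start of Rgs1 the signal was 1833, 820 and 1797 in Acute, 1056, 1669 and 1393 in Chronic and 182, 201 and 193 in ChronicMEKi. ChronicMEKi lay far below, by -2.78 (SE 0.24) against Chronic, and Chronic did not differ detectably from Acute (-0.05, SE 0.24, adjusted p = 0.94 in limma). The start of Rgs19 had 122, 110 and 161 units in Acute, 49.9, 16.3 and 58.1 in Chronic and 82.1, 101 and 48.8 in ChronicMEKi. Chronic against Acute was -1.68 there (SE 0.43, adjusted p = 0.0105), and ChronicMEKi against Chronic 0.92 was not called (adjusted p = 0.329).

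**Figure D3:**
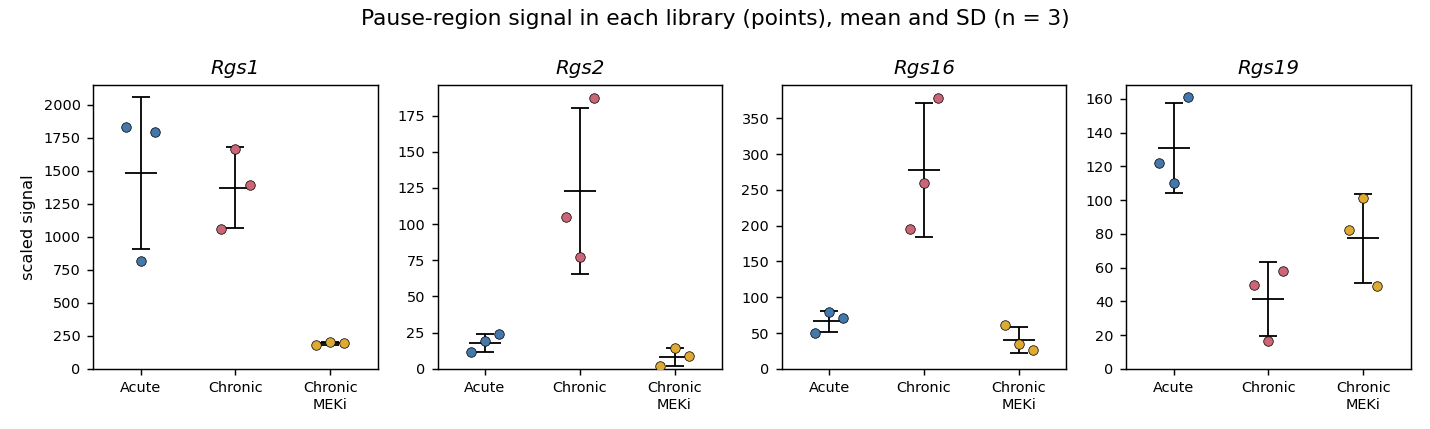
Scaled signal near the transcription start (vertical axis, from 0, its own range in each panel) of the 4 Rgs genes that passed the filter in that table. Points are libraries, bars are the mean and SD of 3 libraries. Rgs2 and Rgs16 are highest in Chronic, Rgs1 is lowest in ChronicMEKi (182 to 201), and Rgs19 is lowest on average in Chronic.

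The balance of start and body was given by log2((pause region + 0.5)/(gene body + 0.5)). Unlike the values above, it was computed from the deposited signal before scaling between libraries. For Rgs1 it was -2.58 ± 0.12 in Acute, -2.69 ± 0.06 in Chronic and -2.58 ± 0.04 in ChronicMEKi (SD, n = 3), so signal at the start and along the gene were low together with the inhibitor. For Rgs16 the values were -2.01 ± 0.18, -2.78 ± 0.18 and -3.03 ± 0.88, and the Acute libraries lay above the Chronic ones. For Rgs19 they were -3.35 ± 0.21, -4.29 ± 0.70 and -3.62 ± 0.66. For Rgs2 they were -2.79 ± 1.28, -2.51 ± 0.33 and -1.39 ± 0.37, and the ChronicMEKi libraries lay above the Chronic ones, at start signals of 2.02 to 14.4. In the limma fit of start against body, 0% of 7328 genes were called in each comparison, and 729, 385 and 563 had an unadjusted p under 0.05. None of the 4 Rgs genes was called (lowest adjusted p = 0.348). That fit used scaled signal and a pseudocount of 5, so its differences depart from those of the balance above. For Chronic against Acute it gave -0.52 (SE 0.27) for Rgs1, -0.34 (SE 0.42) for Rgs2, -1.22 (SE 0.36) for Rgs16 and -1.21 (SE 0.36) for Rgs19. For ChronicMEKi against Chronic it gave 0.09, 1.49, -0.15 and 0.54 in the same order.

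Rgs3 has 17 annotated rows with starts spread over 140.8 kb, and the signal near these starts was uneven. At the start of the row used, 59.7 kb from the first annotated start, pause-region signal was 0, 3.56 and 0 in Acute, 26.0, 0 and 8.01 in Chronic and 20.2, 8.32 and 0 in ChronicMEKi. The 7 rows starting within 63.9 kb had group means of at most 20.4. At 74.5 kb, where transcripts Rgs3-212 and Rgs3-214 begin, it was 651 ± 76.4 in Acute, 412 ± 5.99 in Chronic and 550 ± 42.9 in ChronicMEKi (SD, n = 3). The groups did not overlap there and stood in the same order as the gene body. The row Rgs3-213, which lies upstream of 74.5 kb, had only 55.4, 90.3 and 69.8 units in its gene body, and Rgs3-215 had 81.6, 151 and 176. The large values of the row used thus lie downstream of those rows.

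**Figure D4:**
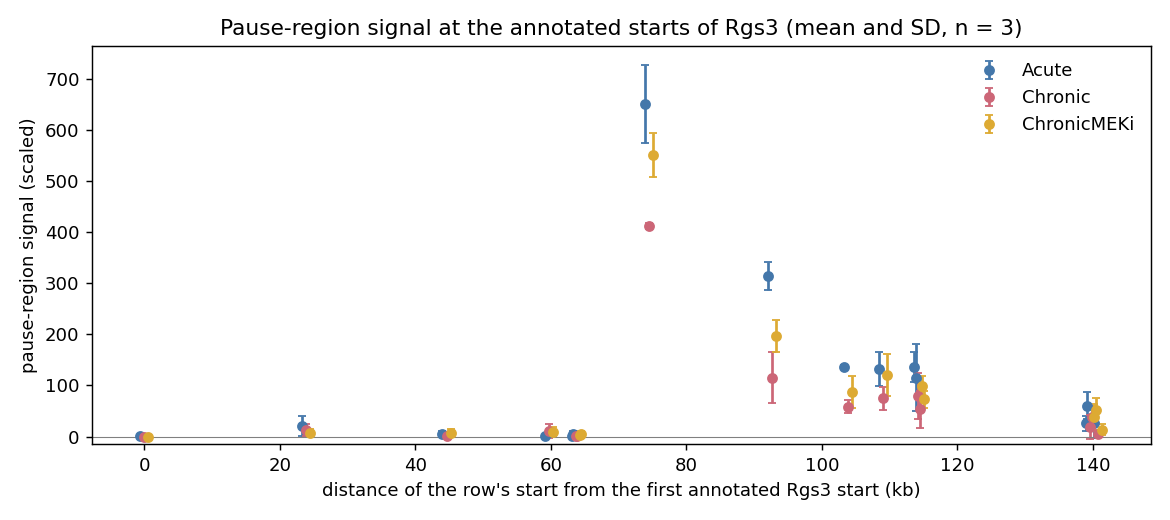
Scaled pause-region signal (vertical axis) at the annotated starts of Rgs3, by distance from the first start in kb (horizontal axis; the groups are set 0.6 kb apart so that points do not hide each other). Points are means and bars SDs of 3 libraries. Signal is near 0 up to 63.9 kb and highest at 74.5 kb, with Acute at 651, ChronicMEKi at 550 and Chronic at 412.

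Rows of the other genes mostly moved as the row used. For Rgs2, 4 of 4 rows were higher in Chronic than in Acute and gave -4.50 to -3.95 for ChronicMEKi against Chronic. For Rgs19, 12 of 12 rows gave -0.58 to -0.39 and 0.29 to 0.51. For Rgs10, 6 of 6 rows gave -1.19 to -0.55 in ChronicMEKi against Chronic. For Rgs14, 2 of 4 rows were higher and 2 lower in that comparison, within -0.18 to 0.45.

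On chromosome 1, Rgs2, Rgs13, Rgs1, Rgs21 and Rgs18 follow one another, and Rgs8 lies 40.0 kb from Rgs16. Rgs13, Rgs21 and Rgs18 reached at most 17.3, 22.9 and 30.1 units in any library and did not pass the filter, so the signal of this cluster came from Rgs1 and Rgs2. Rgs8 was 38.6 ± 22.7 in Acute, 195 ± 36.9 in Chronic and 36.0 ± 15.3 in ChronicMEKi, with differences of 2.35 (SE 0.51, adjusted p = 0.00134 in limma) and -2.33 (SE 0.51, adjusted p = 0.00286). Like Rgs16, Rgs8 had its highest signal in Chronic. It passed the filter only with its Chronic libraries (152 to 220), beside 14.1 to 59.0 in Acute and 23.2 to 53.0 in ChronicMEKi. Its differences are thus conditioned on the group where it is high, and nothing is read from its calls. Among the neighbours tested within 100 kb of the 8 genes, those called in ChronicMEKi against Chronic were Rgs8 and Gm28513, both next to Rgs16 and both lower.

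Of the 13 other Rgs genes, 6 passed the filter. In Chronic against Acute 3 rose (Rgs8, Rgs9 and Rgs12) and none fell, with a median of 0.68 over the 6 tested genes against -0.01 over all genes. These were 50% of those tested, where 33.6% of all genes were called. In ChronicMEKi against Chronic 1 rose (Rgs12) and 1 fell (Rgs8), 33.3% against 16.8% of all genes. Both counts include Rgs8, which passed the filter only with its Chronic libraries. Rgs12, a large RGS protein of the Rgs14 subfamily, was 397 ± 8.83, 981 ± 84.0 and 1559 ± 196 in Acute, Chronic and ChronicMEKi, so it rose with the inhibitor (0.66, SE 0.15, adjusted p = 0.00367) where Rgs1, Rgs2 and Rgs16 were lower. Rgs9, which like Rgs11 pairs with Gnb5, was 159 ± 18.4, 389 ± 64.8 and 371 ± 97.0. In Rgs7 a single library, Chronic replicate 2, had 3517 units where the other 8 had 34.4 to 1329, and no difference was called.

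The other lists were also fixed with earlier results known, and their counts are read against the 33.6% and 16.8% of all genes called in Chronic against Acute and in ChronicMEKi against Chronic. Of 12 tested alpha subunit genes, 2 rose and 2 fell in Chronic against Acute, and 4 rose and none fell in ChronicMEKi against Chronic (Gnai2, Gnaz, Gna11 and Gna15; list median 0.17), 33.3% of the list in each comparison, so the first share is that of all genes. The first count depends on the scaling, since on library totals none rose and 8 fell, and on single libraries: 1 gene in all was called without Acute replicate 1 or 3, and 2 without Chronic replicate 1 or 3. Gnai2, the main inhibitory alpha subunit of lymphocytes and a substrate of many RGS proteins, was 3257 ± 469, 2752 ± 306 and 4372 ± 323, with 0.67 (SE 0.12, adjusted p = 4.20e-04 in limma) for ChronicMEKi against Chronic. Gnaq, the Gq alpha subunit favoured by Rgs2, was 7349 ± 264, 7700 ± 1124 and 7595 ± 423 and was not called in any of the 3 comparisons. Of 12 tested beta and gamma genes, 1 rose and 3 fell in Chronic against Acute, among them Gnb2 (0.92) and Gngt2 (-2.58), and Gngt2 rose with the inhibitor (1.88).

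Receptors that signal through G proteins changed in both directions. Of 32 tested, 11 rose and 9 fell in Chronic against Acute, and 7 rose and 13 fell in ChronicMEKi against Chronic. Those called were 62.5% of the list in each. On library totals the counts were 3 and 13, then 7 and 9. Ptgir, a prostacyclin receptor, had the largest rise in Chronic against Acute (2.86, SE 0.43), from 58.5 ± 38.8 to 383 ± 25.9, and was 125 ± 6.39 in ChronicMEKi. S1pr1, the sphingosine 1-phosphate receptor for exit from lymphoid tissue, fell from 4764 ± 459 in Acute to 349 ± 69.5 in Chronic (-3.77, SE 0.16, adjusted p = 3.17e-12) and was 866 ± 84.7 in ChronicMEKi. Ccr7, a lymph node homing receptor, was 11140 ± 1223, 2221 ± 349 and 5036 ± 70.9. S1pr1 and Ccr7 were lowest in the group where Rgs1, Rgs2 and Rgs16 were highest on average. Cxcr6 followed the opposite course to them, with 329 ± 34.1, 1022 ± 180 and 126 ± 11.1, and fell by 2.96 (log2) with the inhibitor. Cxcr4 was 440 ± 60.2, 214 ± 15.8 and 773 ± 68.4, and Adora2a, an adenosine receptor coupled to cyclic AMP, 414 ± 73.8, 295 ± 29.0 and 775 ± 48.6. Cxcr4 and Adora2a rose with the inhibitor, by 1.83 and 1.38.

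Downstream of the G proteins, 9 of 34 tested effector genes rose and 14 fell in Chronic against Acute, and 7 rose and 6 fell in ChronicMEKi against Chronic. Those called were 67.6% and 38.2% of the list. On library totals the first counts were 5 and 18. Adcy4 and Adcy5, both adenylyl cyclases, went opposite ways: Adcy4 was 373 ± 46.0, 1233 ± 287 and 171 ± 40.6, and Adcy5 was 709 ± 30.8, 183 ± 24.3 and 1777 ± 147. Pik3cg, the PI3 kinase subunit driven by beta and gamma subunits, was 2533 ± 263, 5638 ± 294 and 899 ± 61.3, higher in Chronic and lower with the inhibitor, the order also seen for Rgs1 and Rgs2. Of the 7 receptor kinases and arrestins, 2 rose (Grk5 and Arrb1) and 2 fell (Grk3 and Arrb2) in Chronic against Acute, though on library totals none rose and 5 fell. Arrb1 fell with the inhibitor (-1.13, SE 0.21, adjusted p = 5.80e-04). Of 15 tested genes with an RGS-homology domain or that partner with it, 1 rose (Snx14, 0.51) and 3 fell (Axin1, Arhgef1 and Akap10) in Chronic against Acute, against none and 11 on library totals, and Snx14 fell with the inhibitor (-0.72), although on library totals no gene of this list fell. Snx25 was 2165 ± 150, 1803 ± 280 and 2348 ± 63.0 and rose with the inhibitor (0.39), but no gene of the list rose without ChronicMEKi replicate 1 or 3. Those called in these comparisons were 57.1% and 14.3% of the kinases and arrestins, and 26.7% and 20% of the RGS-homology list, close to or under the shares of all genes except the first.

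In ChronicMEKi against Acute, where 25.8% of all genes were called, 4 of 12 alpha subunit genes rose and none fell, against 2 and 2 on library totals, with Gna15 at 318 ± 95.5 in Acute and 902 ± 117 in ChronicMEKi (1.52). Gng2, a gamma subunit gene, was 10391 ± 454 in Acute and 6429 ± 594 in ChronicMEKi (-0.70, SE 0.11, adjusted p = 1.02e-04 in limma). Of the 32 receptors 5 rose and 12 fell, and on library totals 1 rose and 17 fell. Ccr2, a chemokine receptor, was 142 ± 50.3 in Acute, 88.9 ± 56.0 in Chronic and 13.6 ± 2.69 in ChronicMEKi (-2.92, SE 0.51, adjusted p = 2.82e-04). Grk5, a receptor kinase, rose from 1082 ± 79.3 to 2171 ± 203 (1.00). Of the genes with an RGS-homology domain or that partner with it, none rose and 4 fell, among them Arhgef11 (-1.08, SE 0.36, adjusted p = 0.0323). That count was 9 on library totals, and 1 or 2 without Acute replicate 1, Acute replicate 2 or ChronicMEKi replicate 3.

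**Figure D5:**
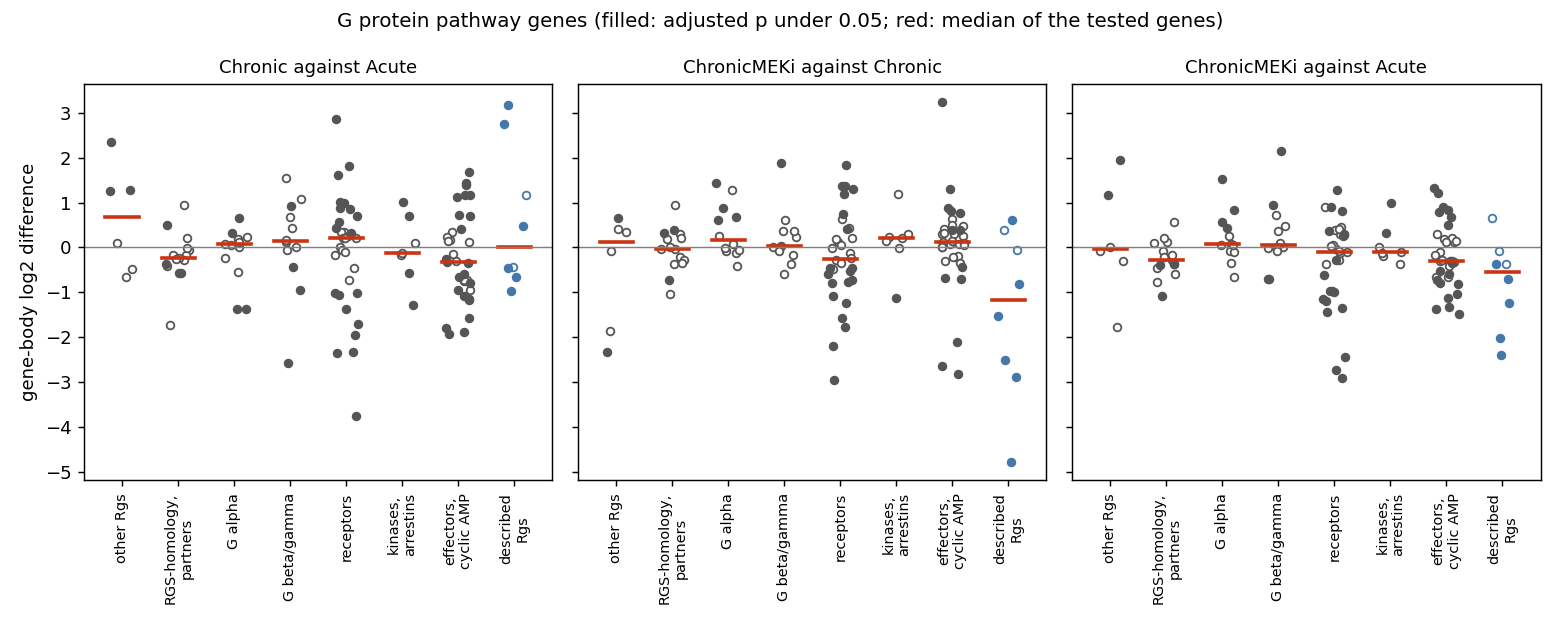
Gene-body log2 differences (vertical axis) of the tested genes in each list of the G protein pathway, with the 8 described Rgs genes in blue, for the 3 comparisons. Each point is a gene, filled where its adjusted p is under 0.05, and red lines are medians. The lists spread to both sides of 0, with S1pr1 lowest in Chronic against Acute (-3.77) and Adcy5 highest in ChronicMEKi against Chronic (3.25).

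For each gene, the genes most like it were taken by Pearson correlation of log2(signal + 5) over the 9 libraries, among 10744 candidates with a mean signal of at least 100. The 9 libraries form 3 groups, so these correlations largely follow the group means and are given without a test. Dusp5, a phosphatase gene of the ERK pathway, was most like Rgs16 (r = 0.995), at 5527 ± 1013, 19440 ± 1612 and 7424 ± 798, followed by Ccdc85b (0.993) and Tlcd2 (0.989). Rgs2 was most like Dmwd (0.973), Gnpnat1 (0.971) and Etv5 (0.967), the last an ETS factor gene at 102 ± 13.4, 701 ± 137 and 48.0 ± 23.5. Rasa2 (0.984), Klrd1 (0.982) and Nf1 (0.981) were most like Rgs1, of which Rasa2 and Nf1 encode proteins that switch off Ras. Nlrc5 (0.991), Atp2b4 (0.991) and Ncoa3 (0.990) were most like Rgs3. Csk was nearest to Rgs14 (0.972), Irf2 to Rgs10 (0.954), Hadha to Rgs19 (0.966) and Ube2n to Rgs11 (0.975). A correlation ignores the size of a change. In Chronic against Acute and ChronicMEKi against Chronic, Ube2n had 0.13 and -0.15, where Rgs11 had 1.17 and -1.54. Gnpnat1 had 0.27 and -0.46, where Rgs2 had 2.76 and -4.79. By Spearman correlation only Gnpnat1 and Ube2n of these genes were among the 3 nearest, but ties were frequent: 21 genes shared the highest value for Rgs3. Among the 8 genes themselves, Rgs1 and Rgs2 correlated at 0.86, Rgs2 and Rgs16 at 0.72, Rgs1 and Rgs16 at 0.44, and Rgs3 and Rgs16 at -0.92.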

How the data were processed

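Per the labels' protocols, 5-ethynyl uridine-labelled RNA was captured and sequenced as paired reads of 100 bases. Per the submitters' processing notes, the build was mm10 and the tools FastQC 0.12.0, Trim Galore 0.6.10, STAR 2.7.0a, SAMtools 1.19.2, deepTools 0.1.9 and R 4.1.2. The signal deposited by the authors is listed per transcript for the gene body and the pause region. Low values were whole multiples of a step of 0.764 to 1.06 per library, and 4 steps were more frequent than 1, so this signal was not treated as read counts. The regions' coordinates, the annotation and the use of strand are not given in the sources used here.

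Of 118482 rows, 753 matched no GENCODE M21 transcript. The 37022 genes kept 1 row each. Scaling between libraries used an unweighted mean of log ratios after trimming (30% of log ratios, 5% of mean levels). limma 3.58.1 (trend, robust) was fitted to log2(signal + 5) over all 9 libraries, with a mean per group, after the filter of 50 in 3 libraries. The fit was tested on simulated data. The design had foreseen another test had the files held counts. Alternatives covered scaling, pseudocount, filter, moderation, replicate block, rows and each library left out. Those for the pause-region counts were added after seeing the data.

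The 8 genes and all lists were chosen with earlier results of these data known. Named genes are, for each list and comparison, the called gene with the largest rise and fall at a mean of at least 100, plus genes of known role; further list members are named where a count is spelled out. Pairing by replicate number was checked and not used. The actinomycin D control was not analysed here. Some marker and neighbouring genes are not reported here.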

Additional observations from a re-analysis of the deposited data

How the results depend on the processing

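Of 464 alternative values for the differences of the 8 genes, 411 kept direction and side of the threshold, 35 lost the call, 10 gained it and 8 changed sign. For Chronic against Acute, Rgs1 went to -0.02 on library totals, -0.0033 on the deposited scale and -0.05 in the pause region. For ChronicMEKi against Chronic, Rgs14 went to 0.08 on library totals, 0.10 on the deposited scale and 0.0015 without ChronicMEKi replicate 3 (leave-one-out range -0.16 to 0.0015). For ChronicMEKi against Acute, Rgs11 went to 0.0066 without Acute replicate 2 (leave-one-out range -0.90 to 0.0066) and Rgs16 to -0.72 in the pause region. The cause was not tested. The number of the 8 genes called was 3, 3 and 1 in the pause region, where 4 were tested, for Chronic against Acute, ChronicMEKi against Chronic and ChronicMEKi against Acute, and 3 in the last with the median over all rows.

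Over all genes, Chronic against Acute in the gene body gave 2856 higher and 2453 lower, but 1096 and 6845 on library totals, 1134 and 6713 on the deposited scale and 2100 and 3753 on totals without ribosomal RNA-like rows. ChronicMEKi against Chronic gave 1359 and 1304, but 1767 and 741 on library totals and 1979 and 721 on the deposited scale. ChronicMEKi against Acute gave 2094 and 1990, but 955 and 4961, 1023 and 4542, and 1575 and 3149 on the 3 scales. In the pause region, library totals gave 1783 calls for Chronic against Acute in place of 824. Leaving out 1 library gave 530 to 744 calls in place of 824, 100 to 268 in place of 219, and 228 to 509 in place of 446; the lowest were without Acute replicate 1, ChronicMEKi replicate 3 and ChronicMEKi replicate 2. Rgs3, Rgs10, Rgs11 and Rgs14 gave no value in the pause region, nor Rgs11 with the median over rows or, for ChronicMEKi against Acute, with 2 groups in the fit, because they did not pass the filter there.

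Correlations of deviations between same-numbered libraries ran from -0.53 to 0.10. For Acute with Chronic they were 0.09, 0.10 and 0.08, against -0.07 to -0.01 between unlike numbers. For Acute with ChronicMEKi they were -0.35, -0.53 and -0.01, and for Chronic with ChronicMEKi -0.04, -0.15 and 0.09. Deviations within a group are tied to one another through its mean, so these values cannot decide whether the libraries were paired. With the replicate number as a block, 5356, 2739 and 4107 genes were called in the gene body, Rgs16 in ChronicMEKi against Acute was called (0.66, adjusted p = 0.0331) and Rgs11 in ChronicMEKi against Chronic was not (-1.54, adjusted p = 0.0647). Not every library correlated best with its own number. Depth in reads is unknown, which limits low genes such as Rgs11 and Rgs2.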
